A study of Mus musculus with 16 samples.

Results

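Mouse embryonic fibroblasts (MEF) given c-Jun were set directly against MEF given c-JunDN, a dominant-negative form of the same transcription factor. Each form was sequenced in 1 RNA library, so the comparison holds 2 of the 16 samples of the series, chosen by their labels and not by any measured value. Both libraries came from OG2 transgenic MEF at passage 2, on a mixed 129SVJ, C57B6 and CBA background. The CBA fraction written in the label differs from sample to sample. The protein was over-expressed in both, so the 2 libraries share the procedure and differ in the form of c-Jun delivered. With 1 library each, a difference in CBA fraction between them cannot be told apart from the form of c-Jun. How long after delivery the MEF were harvested, and which part of the coding sequence c-JunDN carries, are not given in the sources used here. MEF given Jdp2, MEF given DR (which the labels do not spell out) and wild-type (WT) MEF, with 1 library each at the same passage, are used here only to place the levels of the 2 libraries compared. An MEF library given Oct4 is not used, and statements about the other MEF libraries leave it out. The series asks how c-Jun, c-JunDN and Jdp2 act on gene expression in stem cells, in fibroblasts and during reprogramming.

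c-Jun is a basic leucine zipper protein that pairs with Fos, Fra, ATF or other Jun proteins to form AP-1, and AP-1 dimers bind the site TGANTCA. AP-1 is activated by growth factors, cytokines and stress, and in fibroblasts it is best known for driving matrix-degrading enzymes, plasminogen activators and cytokines. A dominant-negative form occupies dimers or sites while lacking the ability to activate transcription, so setting one form against the other asks what depends on active c-Jun when both cell populations carry a Jun transgene.

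MEF given active c-Jun and MEF given c-JunDN had very different levels of matrix, interferon-response and glycolysis genes. Serpinb2, an inhibitor of plasminogen activators, stood at 375 counts scaled to library size (CPM) with c-Jun, against 0.41 CPM with c-JunDN, the highest log2 ratio of all. Eln, which encodes elastin, stood at 5.00 CPM with c-Jun compared with 855 CPM with c-JunDN, the lowest log2 ratio of all. All 28 measured genes of the interferon response were lower with c-Jun, as were 9 of 10 genes of MHC class I presentation and 11 of 18 contractile genes. Of 19 measured genes of glycolysis and hypoxia, 15 were higher with c-Jun and none was lower. With 1 library a side there is no estimate of replicate spread, no test and no p-value. The 95% intervals given with ratios are exact conditional binomial intervals and cover counting error only.

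Over the whole table, 11194 of 20325 genes reached 5 CPM in at least 1 of the 2 libraries and are called measured. A gene is called at 2-fold or more on log2((CPM + 1)/(CPM + 1)), c-Jun over c-JunDN. On this rule 878 genes (7.84% of those measured) were higher with c-Jun, 1146 (10.2%) were lower, and together they made up 18.1%. The difference was at least 4-fold for 301 of the higher and 418 of the lower genes, and at least 8-fold for 118 and 172 of them. The counting interval excluded equal levels for 857 of the higher and 1108 of the lower genes. No count at all was seen with c-JunDN for 43 of the higher genes, and none with c-Jun for 44 of the lower genes. The median log2 ratio over measured genes was -0.01, as the scaling of the libraries sets it near 0. The genes nearest the threshold had log2 ratios of 1.003 (called) and 0.9992 (not called) on the higher side, and -1.0 (called) and -0.998 (not called) on the lower side.

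**Figure D1:**
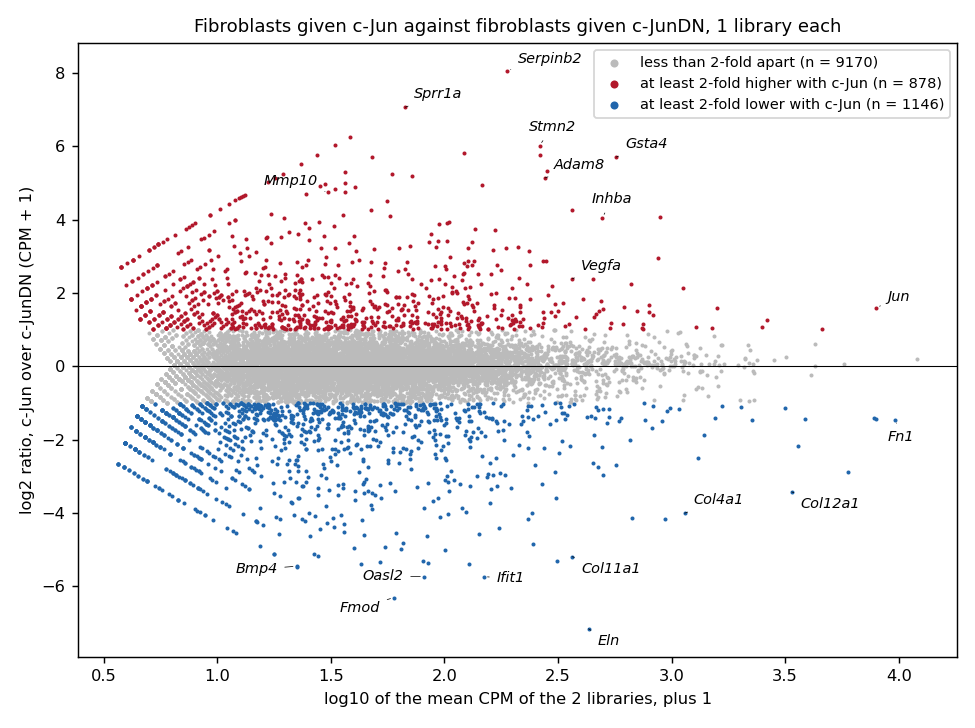
Log2 ratio of c-Jun over c-JunDN against the log10 mean CPM of the 2 libraries for the 11194 measured genes, 1 point a gene, with genes at least 2-fold higher with c-Jun in red, at least 2-fold lower in blue and the rest in grey. Serpinb2 lies highest at 8.06 and Eln lowest at -7.16, and lines of points at the left edge are genes with few counts.

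The libraries held 1961313 (c-Jun), 2472474 (c-JunDN), 1961268 (Jdp2), 2094306 (DR) and 21415021 (WT) expected counts. A floor of 3 counts equals 1.5 CPM in the c-Jun library and 1.23 CPM in the c-JunDN library, and where a library has 0 counts the fold is a lower bound taken against that floor. All 10 fibroblast markers were detected in both libraries, and 4 of 4 Y-linked genes were detected in both and called in neither direction. The markers were not equal, however. Of the 10, S100a4 was higher with c-Jun (240.4 CPM with c-Jun, 115 CPM with c-JunDN), 5 were lower and 4 were neither, with a median log2 ratio of -0.91. In bulk RNA, fewer cells of a type and less RNA per cell cannot be told apart, here or below.

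The transgene is visible in the counts. Jun stood at 11965 CPM with c-Jun compared with 3968 CPM with c-JunDN, beside 67.5 CPM with Jdp2, 88.5 CPM with DR and 61.1 CPM in WT MEF. Both libraries were therefore far above the other 3, and Jun was 3.02-fold higher with c-Jun (95% interval 2.94 to 3.09). The counts do not separate the introduced from the endogenous transcript, and a construct that carries less of the gene gives fewer reads at the same number of molecules, so the 2 Jun levels are not a dose comparison. Jdp2, a Jun dimerization partner that also represses AP-1 sites, was at 69.0 CPM with c-Jun compared with 101 CPM with c-JunDN, short of 2-fold.

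Stretches of promoter sequence are shown for a choice of called genes, so that the letters can be read beside the levels given later. Not all of them moved far: Plaur was 3.01-fold higher with c-Jun. AP-1 sites (TGANTCA, either strand) are in 7.81% of 32851 RefSeq promoters, and the core of the interferon-stimulated response element (ISRE), GAAA, any 2 bases and GAAA again on either strand, is in 3.44% of them. Lines marked AP-1 below hold that site in capitals, lines marked ISRE hold the interferon core in capitals, and each runs 5′ to 3′ on the strand of the gene with 20 bases on both sides. All are RefSeq promoters of GRCm38.p6.
Mmp10 (AP-1, higher): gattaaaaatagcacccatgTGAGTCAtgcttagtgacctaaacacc
Mmp3 (AP-1, higher): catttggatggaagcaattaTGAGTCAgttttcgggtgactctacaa
Mmp12 (AP-1, higher): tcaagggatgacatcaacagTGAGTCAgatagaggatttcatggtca
Il11 (AP-1, higher): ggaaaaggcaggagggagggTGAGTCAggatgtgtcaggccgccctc
Plaur (AP-1, higher): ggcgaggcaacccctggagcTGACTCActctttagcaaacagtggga
Srxn1 (AP-1, higher): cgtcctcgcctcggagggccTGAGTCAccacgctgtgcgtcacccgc
Sprr1a (AP-1, higher): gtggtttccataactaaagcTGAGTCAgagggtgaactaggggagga
Il1rn (AP-1, lower): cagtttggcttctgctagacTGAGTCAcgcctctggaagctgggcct
Mylk (AP-1, lower): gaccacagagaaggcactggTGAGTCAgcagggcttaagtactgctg
Ifit1 (ISRE, lower): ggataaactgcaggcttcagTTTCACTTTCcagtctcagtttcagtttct
Isg15 (ISRE, lower): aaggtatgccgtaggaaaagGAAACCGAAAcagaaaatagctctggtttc
Tgtp1 (ISRE, lower): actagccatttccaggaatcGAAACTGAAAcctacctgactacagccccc
The capitals begin 63, 46 and 44 bases before the start of the matrix protease genes Mmp10, Mmp3 and Mmp12, which lie close together on chromosome 9. The windows are chr9:7502259-7502305, chr9:7445756-7445802 and chr9:7347310-7347356, all on the plus strand. On the plus strand too are Plaur (chr7:24462394-24462440), Srxn1 (chr2:152105402-152105448), Il1rn (chr2:24336699-24336745), Mylk (chr16:34784866-34784912) and Ifit1 (chr19:34640765-34640814). On the minus strand are Il11 (chr7:4778213-4778259), Sprr1a (chr3:92486001-92486047), Isg15 (chr4:156200861-156200910) and Tgtp1 (chr11:48992294-48992343). Srxn1 and Sprr1a each hold a further AP-1 site in the window searched, Ifit1 a further interferon core, and Isg15 further overlapping cores. These lines are examples. Among the 187 called genes taken by the naming rule, the AP-1 site stood before 12 higher and 5 lower genes. The lower ones were Il1rn, Mylk, Ddit3, Fas and Tinagl1. The interferon core stood before 2 higher genes, Inhbb and Vegfa, and 9 lower ones. Only sites lying wholly before the gene start were counted here. No share over the named genes with a matched promoter was computed, so the higher and lower counts are not compared. A match of letters is a description, not a bound site.

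The promoter table (RefSeq, GRCm38.p6, 250 bases before to 50 after each start) was matched for 659 of 878 higher, 850 of 1146 lower and 8935 of 11194 measured genes. The AP-1 site was found for 82 (12.4%) of the matched higher and 65 (7.65%) of the matched lower genes, beside 542 (6.07%) of all matched measured genes. Among matched genes at least 8-fold apart it was found for 19 of 78 higher (24.4%) and 16 of 116 lower ones (13.8%). It was also found for 7 of 21 matched genes of the interferon response (33.3%), a list lower throughout with c-Jun. The interferon core was found for 21 (3.19%) of the higher and 72 (8.47%) of the lower, beside 326 (3.65%). Some called genes had no matched promoter, and differences between these shares were not tested.

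AP-1 subunit genes differed singly rather than as a family. Of 12 measured genes of the AP-1 family, 3 were higher, 2 lower and 7 neither, with a median of -0.32, against 7.84% higher and 10.2% lower over all measured genes. Fosl1, which encodes the Jun partner Fra-1, had 47 counts with c-Jun (23.5 CPM) and 0 with c-JunDN, at least 19.1-fold higher; it stood at 4.50 CPM with Jdp2, 1.93 CPM with DR and 13.8 CPM in WT MEF. Fos, the founding partner, ran the other way, at 3.00 CPM with c-Jun, against 12.7 CPM with c-JunDN. Fosl1 with c-Jun was also above all the other MEF libraries used here, and Fos was below them all.

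The serum-responsive immediate early genes divided, with 4 of 11 measured higher, 3 lower and 4 neither (median -0.20). Egr3, a zinc finger factor, stood at 14.5 CPM with c-Jun, against 1.23 CPM (3 counts) with c-JunDN, 11.8-fold higher with c-Jun (95% interval 3.65 to 60.4). Its relative Egr1 stood at 18.5 CPM with c-Jun compared with 97.6 CPM with c-JunDN, 5.28-fold lower with c-Jun (95% interval 3.72 to 7.68). The orphan receptor Nr4a1 was lower too, at 1.5 CPM (3 counts) with c-Jun, against 22.2 CPM with c-JunDN, while Ier5, a stress-response regulator, was higher, at 212 CPM with c-Jun, against 64.0 CPM with c-JunDN. Myc, the growth-promoting factor also used for reprogramming, was 3.23-fold higher with c-Jun (95% interval 2.47 to 4.27), at 99.5 CPM with c-Jun compared with 30.8 CPM with c-JunDN. Among feedback genes of the ERK pathway, 4 of 14 were higher and 3 lower (median 0.43). The phosphatases Dusp4 and Dusp5, which dephosphorylate MAP kinases, and Phlda1 had log2 ratios of 1.39, 1.41 and 1.41, of which Dusp5 fell short of 2-fold with a pseudocount of 5 CPM. Spry1, an inhibitor of receptor tyrosine kinase signalling, was 23.1-fold lower with c-Jun (95% interval 11.0 to 58.2), at 3.50 CPM with c-Jun, against 80.8 CPM with c-JunDN. The feedback genes thus did not move as 1 block. For both lists, the shares over all measured genes were 7.84% higher and 10.2% lower.

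Secreted proteases and the plasminogen system held several of the largest differences upward. Of 19 measured matrix proteases and inhibitors, 7 were higher and 6 lower (median 0.40), beside 7.84% and 10.2% of all measured genes. The summed level of the list was 4713 CPM with c-Jun, against 5417 CPM with c-JunDN. Adamts1 and Adamts5, picked out after the values were seen, were the lowest of the lower members, with log2 ratios of -3.31 and -3.25. The stromelysin genes Mmp10 and Mmp3 stood at 58.5 and 89.0 CPM with c-Jun compared with 1.23 and 3.69 CPM with c-JunDN. Mmp10 was 47.5-fold higher with c-Jun (95% interval 15.9 to 234), on 117 counts with c-Jun and 3 with c-JunDN, and Mmp3 was 24.1-fold higher with c-Jun (95% interval 12.4 to 53.6). Mmp12, the macrophage metalloelastase, was at 46.0 CPM with c-Jun compared with 2.46 CPM with c-JunDN. In the other fibroblasts Mmp10 was at 0.5, 1.45 and 1.34 CPM with Jdp2, with DR and in WT MEF, and Mmp3 at 0, 16.9 and 7.13 CPM, so the c-Jun library was the highest of the 5 for both. Adam8, a membrane metalloprotease, was at 537 CPM with c-Jun, against 14.4 CPM with c-JunDN, 37.4-fold higher with c-Jun (95% interval 26.7 to 54.0), and at 5.00, 7.25 and 9.69 CPM with Jdp2, with DR and in WT MEF. The c-Jun library was the only 1 of the 5 above 20 CPM for Adam8.

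In the plasminogen system, which turns plasminogen into the protease plasmin and restrains that step, 5 of 10 measured genes were higher and 1 lower (median 0.87). Serpinb2 had 750 counts with c-Jun and 1 count with c-JunDN, a ratio of 914 (95% interval 164 to 36140.3), and stood at 0, 1.45 and 1.65 CPM with Jdp2, with DR and in WT MEF. Plaur, the urokinase receptor, was at 18.5 CPM with c-Jun, against 6.15 CPM with c-JunDN, 3.01-fold higher with c-Jun (95% interval 1.61 to 5.89), but at 17.9 CPM with DR and 40.0 CPM in WT MEF. Its difference therefore came with a c-JunDN level under that of DR and WT MEF rather than a c-Jun level above them. Serpine2, protease nexin 1, was the lower member, at 293 CPM with c-Jun compared with 767 CPM with c-JunDN.

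Cytokine genes showed 6 higher and 3 lower of 11 measured (median 1.73). Il11, a cytokine of the interleukin 6 family, had 89 counts with c-Jun (44.5 CPM) and 5 with c-JunDN (2.05 CPM), 21.7-fold higher with c-Jun (95% interval 8.95 to 68.4), and stood at 2.00, 3.39 and 4.63 CPM with Jdp2, with DR and in WT MEF. Il33, an alarmin, and Il1rl1, its receptor, were both higher: Il33 was at 87.0 CPM with c-Jun, against 8.62 CPM with c-JunDN, and Il1rl1 at 159 CPM with c-Jun compared with 12.3 CPM with c-JunDN. For Il33 the c-Jun library was above the 4 other MEF libraries. For Il1rl1 it was not, since DR and WT MEF stood at 137 and 192 CPM, near the c-Jun level. Il1rn, the interleukin 1 receptor antagonist, ran the other way, at 2.00 CPM (4 counts) with c-Jun, against 33.6 CPM with c-JunDN, 16.8-fold lower with c-Jun (95% interval 6.33 to 63.2). Among chemokines, 4 of 10 were higher and 2 lower. Rarres2, which encodes chemerin, was 59.8-fold higher with c-Jun (95% interval 38.9 to 97.1), at 515 CPM with c-Jun, against 8.62 CPM with c-JunDN. Cxcl14, a chemokine of epithelia and stroma, was 18.9-fold lower with c-Jun (95% interval 11.9 to 31.7), at 9.50 CPM with c-Jun compared with 179 CPM with c-JunDN. Of the prostaglandin genes, 1 of 10 was higher, Ptges, the inducible prostaglandin E synthase (217 CPM with c-Jun, 31.6 CPM with c-JunDN). Lower were 2, Pla2g4a and Ptgis, with log2 ratios of -1.50 and -1.25. Over all measured genes 7.84% were higher and 10.2% lower.

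**Figure D2:**
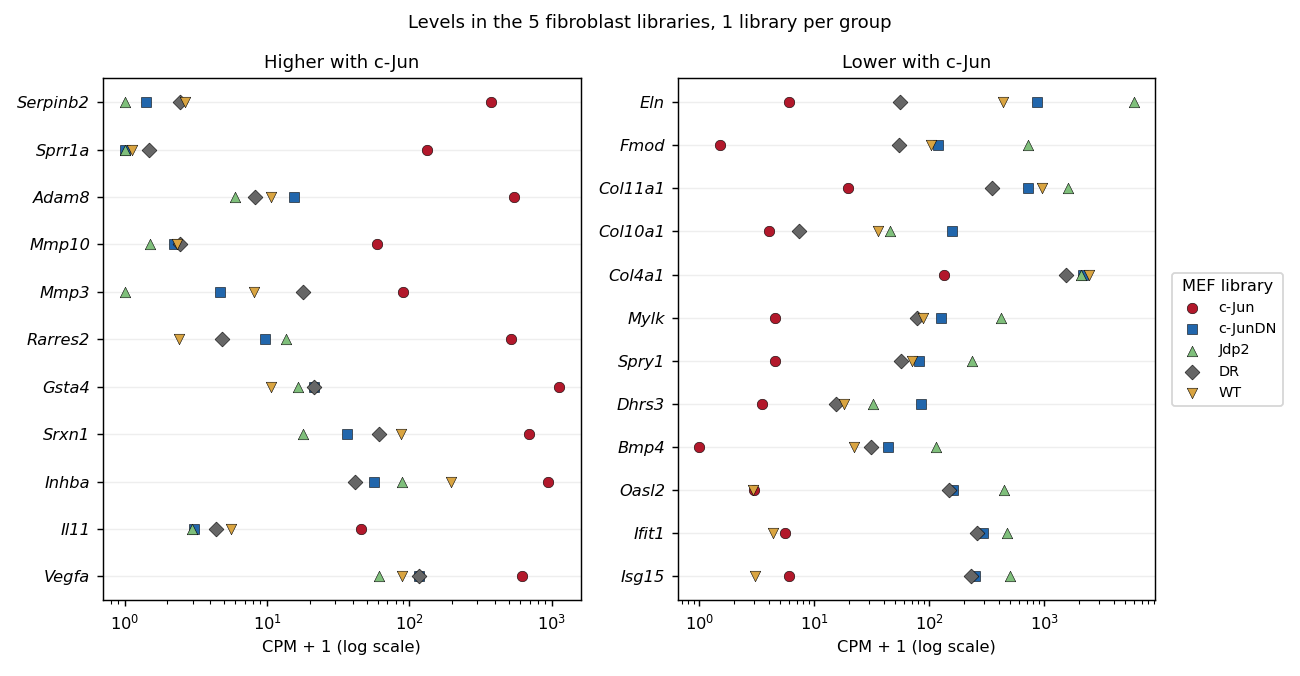
Level of 11 genes higher and 12 genes lower with c-Jun in the 5 MEF libraries, as CPM + 1 on a log axis, 1 library a group and so no error bars. For Serpinb2 and Mmp10 the c-Jun library stands apart from the 4 others, while for Ifit1 and Isg15 the c-Jun and WT libraries lie together at the low end.

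No gene of the interferon list was higher or level with c-Jun. Interferons are cytokines that switch on antiviral genes, and all 28 of the 28 listed genes that were measured were lower with c-Jun, with a median log2 ratio of -3.85. Ifit1, which binds viral RNA caps, stood at 4.50 CPM with c-Jun, against 292 CPM with c-JunDN, 64.8-fold lower with c-Jun (95% interval 34 to 142). Isg15, a ubiquitin-like modifier, stood at 5.00 CPM with c-Jun compared with 249 CPM with c-JunDN, 49.9-fold lower with c-Jun (95% interval 26.9 to 105). Oasl2 was at 2.00 CPM with c-Jun, against 158 CPM with c-JunDN, and Mx2, a dynamin-like antiviral GTPase, at 0.5 CPM (1 count) with c-Jun, against 50.9 CPM with c-JunDN. Irf7, the factor that amplifies the response, was at 1.5 CPM (3 counts) with c-Jun, against 76.3 CPM with c-JunDN. The interferon-induced GTPase genes Iigp1, Tgtp1 and Tgtp2 were among the 25 lowest log2 ratios of all. Tgtp1 and Tgtp2 had 0 counts with c-Jun, at least 28.7-fold and 22.4-fold lower, but they are near copies and the split of reads between them is uncertain.

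The other fibroblasts place this difference. Summed over the list, the level was 206 CPM with c-Jun against 3193 CPM with c-JunDN, beside 6919 CPM with Jdp2, 3151 CPM with DR and 308 CPM in WT MEF. The c-Jun library and WT MEF thus formed the low end, and c-JunDN sat with DR. For Ifit1 the values were 469.7, 257 and 3.35 CPM with Jdp2, with DR and in WT MEF, and for Isg15 they were 496, 228 and 2.07 CPM. Macrophage markers moved in the same direction: 10 of 12 measured were lower with c-Jun, with a summed level over 14 markers of 142 CPM with c-Jun against 236 CPM with c-JunDN. That sum was 56.0, 113 and 101 CPM with Jdp2, with DR and in WT MEF, so it was lowest in the Jdp2 library, where the interferon sum was highest. Ptprc, the pan-leukocyte marker, was at 0 with c-Jun against 1.23 CPM with c-JunDN, and Fcer1g at 0 with c-Jun against 4.10 CPM with c-JunDN. Csf1r and Cd14 were higher with c-Jun. Csf1r alone held 73.0 of the 142 CPM with c-Jun, beside 9.03 with c-JunDN, 2.00 with Jdp2, 4.35 with DR and 10.9 in WT MEF. The place of the c-Jun library in that sum thus rests in large part on Csf1r. The part of macrophages in the interferon difference was not tested.

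MHC class I presentation, itself interferon-inducible, followed: 9 of 10 measured genes were lower, 1 was neither and none was higher (median -2.07). Tap1, a peptide transporter, was 5.01-fold lower with c-Jun (95% interval 3.35 to 7.77), at 14.0 CPM with c-Jun compared with 70.2 CPM with c-JunDN. The immunoproteasome subunits Psmb8 and Psmb10 had log2 ratios of -2.59 and -2.22. Nlrc5, the transactivator of these genes, had 0 counts with c-Jun and 19 with c-JunDN, at least 5.2-fold lower, a call lost in TPM and with a minimum of 10 CPM. Complement and acute phase genes had 7 of 8 lower and none higher (median -2.53). Serping1, the C1 inhibitor, stood at 3.00 CPM with c-Jun, against 64.8 CPM with c-JunDN.

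**Figure D3:**
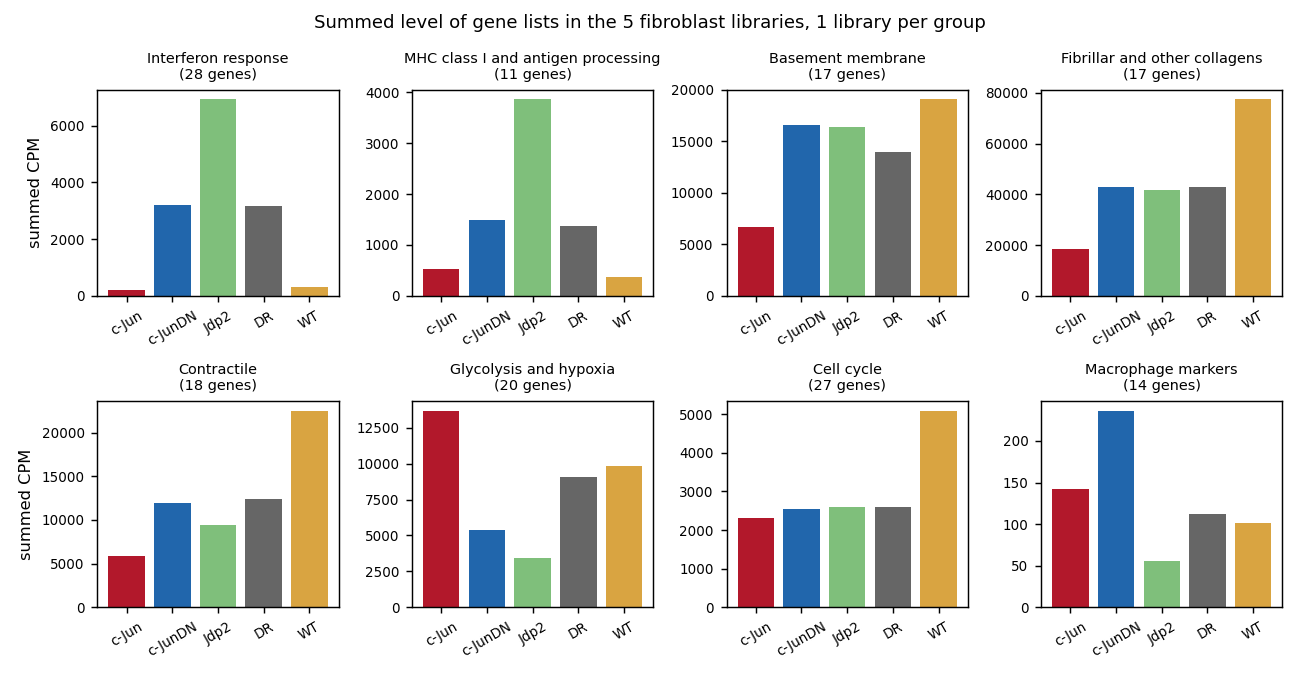
Summed CPM of 8 gene lists in the 5 MEF libraries, 1 library a group and so no error bars, with each axis starting at 0 and c-Jun at the left. The interferon sum is 206 with c-Jun, 3193 with c-JunDN and 308 in WT MEF, and the glycolysis and hypoxia sum is highest with c-Jun, at 13693.

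Structural matrix genes were mostly lower with c-Jun, and the differences were largest away from the main fibrillar collagens. Of 17 measured collagens outside the basement membrane, 9 were lower, 2 higher and 6 neither (median -1.25). Col11a1, a collagen that nucleates fibrils, was 38.4-fold lower with c-Jun (95% interval 27.8 to 54.8), at 18.5 CPM with c-Jun compared with 711 CPM with c-JunDN, with 1615, 347 and 956 CPM with Jdp2, with DR and in WT MEF. Col12a1, which coats collagen fibrils, was 10.8-fold lower with c-Jun (95% interval 10.1 to 11.4), on 1150 counts with c-Jun and 15075 with c-JunDN. Col8a2 had 0 counts with c-Jun and 54 with c-JunDN, at least 14.8-fold lower. Col10a1, the collagen of hypertrophic cartilage, was at 3.00 CPM with c-Jun, against 156 CPM with c-JunDN, but at 6.29 CPM with DR and 34.8 CPM in WT MEF, so the c-JunDN library was the highest of the 5. Col1a2, a chain of type I collagen, differed less, at 4271 CPM with c-Jun compared with 11523 CPM with c-JunDN, 2.70-fold lower with c-Jun (95% interval 2.63 to 2.76).

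Basement membrane genes gave 9 lower, 0 higher and 6 neither of 15 measured (median -1.04). Col4a1 and Col4a2, the paired chains of the main type IV collagen, were 133 and 98.0 CPM with c-Jun, against 2148 and 1764 CPM with c-JunDN. Col4a1 was 16.2-fold lower with c-Jun (95% interval 14.3 to 18.3) and Col4a2 18.0-fold lower with c-Jun (95% interval 15.6 to 20.9). The 4 MEF libraries other than c-Jun spanned only 1545 (DR) to 2415 (WT) CPM for Col4a1, which leaves the c-Jun library alone at the low end. Nid2, a nidogen that links laminin to type IV collagen, was at 23.5 CPM with c-Jun compared with 440.6 CPM with c-JunDN, and the laminin chain gene Lama5 had 40 counts with c-Jun and 438 with c-JunDN.

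Among elastic fibre and cross-linking genes, 8 of 18 were lower and 2 higher (median -0.80). Eln had 10 counts with c-Jun and 2083 with c-JunDN, 171-fold lower with c-Jun (95% interval 92.8 to 357). Its level varied widely over the other fibroblasts, at 5963 CPM with Jdp2, 54.6 CPM with DR and 431 CPM in WT MEF, so c-Jun was lowest, DR lay between the 2 libraries compared, and Jdp2 was above both. The microfibril gene Mfap4 and the elastic fibre genes Fbln5 and Fbn2 had log2 ratios of -4.01, -2.68 and -2.87. Small leucine-rich proteoglycans, which regulate collagen fibril growth, and matricellular genes gave 10 lower and 3 higher of 18 (median -1.87). Fmod, fibromodulin, had 1 count with c-Jun and 286 with c-JunDN, 235-fold lower with c-Jun (95% interval 41.8 to 9304). The related Aspn and Lum were at 14.5 and 16.0 CPM with c-Jun, against 329.8 and 152 CPM with c-JunDN. Mgp, an inhibitor of tissue calcification, was 38.7-fold lower with c-Jun (95% interval 20.8 to 81.1).

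Contractile genes, many of which depend on serum response factor and its CArG box, were lower for 11 of 18 measured, higher for none and neither for 7 (median -1.34). Mylk, the smooth muscle myosin light chain kinase, was 35.9-fold lower with c-Jun (95% interval 17.2 to 90.0), at 3.50 CPM with c-Jun compared with 126 CPM with c-JunDN. Its substrate gene Myl9 was 9.44-fold lower with c-Jun (95% interval 7.72 to 11.7), at 51.5 CPM with c-Jun, against 486 CPM with c-JunDN, and Acta2, smooth muscle actin, stood at 597 CPM with c-Jun compared with 2173 CPM with c-JunDN. For Acta2 the other libraries were at 1363 CPM with Jdp2, 2841 CPM with DR and 6522 CPM in WT MEF, all above the c-Jun library. Skeletal actin Acta1 was 12.8-fold lower with c-Jun (95% interval 8.67 to 19.7), at 13.5 CPM with c-Jun against 173 with c-JunDN, beside 14.5 CPM with DR and 123 CPM in WT MEF, so the c-JunDN and WT libraries were the high ones. Adhesion receptors differed in both directions. Of 20 measured integrins and adhesion genes, 5 were higher and 8 lower, beside 7.84% and 10.2% of all measured genes. Itga2, a collagen-binding integrin, stood at 34 CPM with c-Jun, against 2.05 CPM with c-JunDN, and Itga7, a laminin receptor, at 241 CPM with c-Jun compared with 22.2 CPM with c-JunDN. Itga1, also a collagen-binding chain, and Itga8 were lower, at 2.50 and 3.00 CPM with c-Jun, against 60.3 and 165 CPM with c-JunDN.

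**Figure D4:**
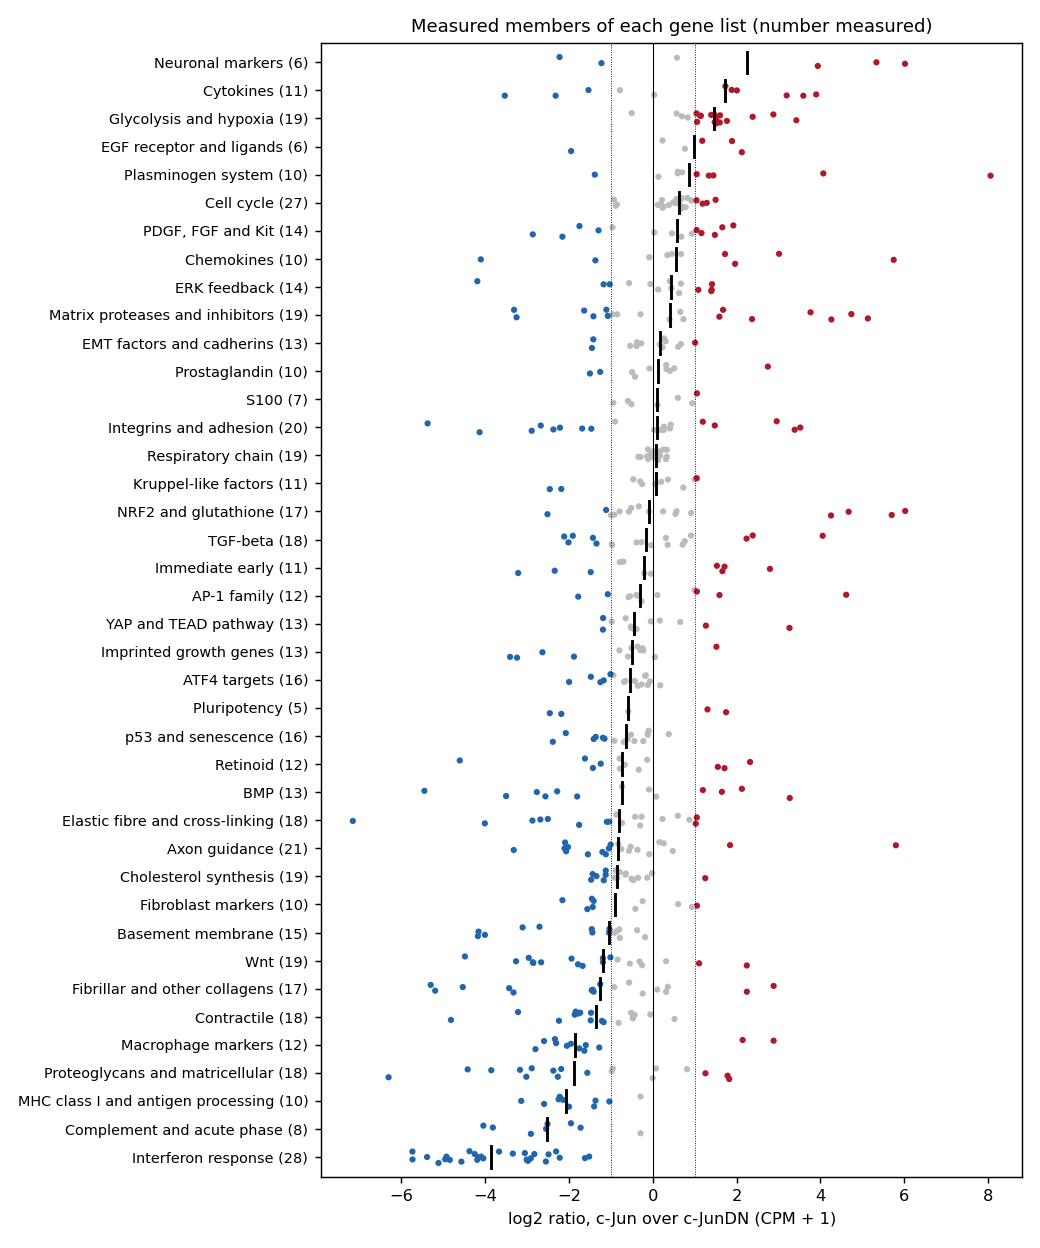
Log2 ratio of c-Jun over c-JunDN for each measured member of the lists with at least 5 measured genes, 1 point a gene, with the median as a black bar, genes at least 2-fold higher in red, at least 2-fold lower in blue, and dotted lines at 2-fold. The interferon list lies wholly to the left (median -3.85), glycolysis and hypoxia mostly to the right (median 1.47), and the respiratory chain inside the dotted lines.

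Signalling ligands changed in both directions. The counts below stand beside 7.84% higher and 10.2% lower over all measured genes. In the TGF-beta list 3 of 18 genes were higher and 5 lower, with Inhba, the activin A subunit, 16.9-fold higher with c-Jun (95% interval 14.2 to 20.3) at 935 CPM with c-Jun compared with 55.4 CPM with c-JunDN. Ltbp1, which holds latent TGF-beta in the matrix, was 4.73-fold higher with c-Jun (95% interval 4.31 to 5.2), and the inhibitory Smad6 had a log2 ratio of -2.11. In the BMP list 4 of 13 were higher and 6 lower. Bmp4 had 0 counts with c-Jun and 104 with c-JunDN, at least 28.5-fold lower, whereas Bmp6 had 41 counts with c-Jun and 3 with c-JunDN, 16.7-fold higher with c-Jun (95% interval 5.31 to 84.1). Grem1, a secreted BMP antagonist, was 12.8-fold lower with c-Jun (95% interval 7.45 to 23.8), and Id4, a BMP-inducible inhibitor of bHLH factors, had a log2 ratio of -2.77. Wnt pathway genes were lower for 12 and higher for 2 of 19 (median -1.19). Lgr5, an R-spondin receptor, had 0 counts with c-Jun and 52 with c-JunDN, at least 14.2-fold lower, and the secreted antagonists Sfrp1 and Sfrp2 had log2 ratios of -3.26 and -2.86.

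Growth factor receptors and ligands of the EGF family gave 3 higher and 1 lower of 6. Here too the shares over all measured genes were 7.84% and 10.2%. The receptor Egfr was 3.91-fold lower with c-Jun (95% interval 3.18 to 4.83), at 56.5 CPM with c-Jun, against 221 CPM with c-JunDN, while its ligand Hbegf and its feedback inhibitor Errfi1 were at 56.0 and 134 CPM with c-Jun compared with 14.4 and 29.9 CPM with c-JunDN. Hbegf thus differed in the opposite direction from its receptor. Of the PDGF, FGF and Kit list 5 of 14 were higher and 4 lower. Met, the hepatocyte growth factor receptor, was 3.87-fold higher with c-Jun (95% interval 3.02 to 5.00). Pdgfrb was 4.50-fold lower with c-Jun (95% interval 3.78 to 5.38), and the ligands Fgf7 and Fgf10 had log2 ratios of -1.75 and -2.86. Axon guidance genes, which also act in mesenchyme, were lower for 10 and higher for 2 of 21. The exception by size was Sema7a, a membrane-anchored semaphorin, 72.3-fold higher with c-Jun (95% interval 36.4 to 169), at 237 CPM with c-Jun, against 3.28 CPM with c-JunDN.

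Most glycolysis and hypoxia genes were higher with c-Jun: 15 of 19 measured were higher, 4 were neither and none was lower (median 1.47). Slc2a1, the main glucose transporter of fibroblasts, was 7.55-fold higher with c-Jun (95% interval 5.92 to 9.75), at 235 CPM with c-Jun compared with 31.2 CPM with c-JunDN. Bnip3, a mitophagy receptor, was 11.3-fold higher with c-Jun (95% interval 8.16 to 16.1), at 186 CPM with c-Jun, against 16.4 CPM with c-JunDN. Pdk1, which inhibits pyruvate dehydrogenase, was 3.58-fold higher with c-Jun (95% interval 2.41 to 5.46). DR and WT MEF lay between the 2 libraries compared for these 3 genes, at 99.6 and 113 CPM for Slc2a1, 65.8 and 44.6 CPM for Bnip3, and 33.4 and 40.7 CPM for Pdk1. Over the whole list the summed level was 13693 CPM with c-Jun against 5362 CPM with c-JunDN, beside 3445, 9071 and 9838 CPM with Jdp2, with DR and in WT MEF. Vegfa, the angiogenic factor, was placed differently: it was at 612 CPM with c-Jun compared with 117 CPM with c-JunDN, with 117 CPM with DR, so c-JunDN and DR were level. None of the 19 measured respiratory chain genes was called in either direction (median 0.08).

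Glutathione and redox genes were led by few members, 4 higher and 2 lower of 17 (median -0.09). This count and those below stand beside 7.84% higher and 10.2% lower over all measured genes. Gsta4, a glutathione transferase that detoxifies lipid aldehydes, was 54.5-fold higher with c-Jun (95% interval 41.2 to 73.6), at 1117 CPM with c-Jun, against 20.5 CPM with c-JunDN, and all 3 other MEF libraries were at 20.3 CPM (DR) or below. Srxn1, sulfiredoxin, was 19.6-fold higher with c-Jun (95% interval 15.7 to 24.6), at 690.3 CPM with c-Jun compared with 35.3 CPM with c-JunDN. Gsta1 and Gsta2 had 49 and 128 counts with c-Jun, against 0 with c-JunDN, but they are near copies and the division of reads between them is uncertain. Cholesterol synthesis genes were lower for 6 and higher for 1 of 19 (median -0.85). Idi1 and Cyp51, enzymes of the pathway, had log2 ratios of -1.47 and -1.43, and Insig1, which retains the SREBP complex in the endoplasmic reticulum, was the higher member at 1.25. Targets of ATF4 were lower for 5 of 16 and of p53 and senescence for 6 of 16, with none higher in either list. Examples were Nupr1, a stress-induced chromatin protein (-2.0), Ddit3, which encodes CHOP (-1.17), and the death receptor Fas (-2.08). Cell cycle genes were higher for 4 and lower for none of 27 (median 0.64). The 4 were the mitotic kinases Aurka and Bub1, the replicative helicase gene Mcm6 and Cdk6, with log2 ratios of 1.5, 1.29, 1.19 and 1.05, the last short of 2-fold with a pseudocount of 5 CPM. The list's summed level ran against that median, at 2312 CPM with c-Jun, against 2551 CPM with c-JunDN, a sum in which Ccnd2, cyclin D2, picked out after the values were seen, alone held 573 CPM with c-Jun compared with 1091 CPM with c-JunDN.

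A few genes best known from other cell types were among the highest log2 ratios. Stmn2 and Gap43, growth-associated genes of neurons, stood at 515 and 553 CPM with c-Jun compared with 6.97 and 12.7 CPM with c-JunDN. Stmn2 was 73.9-fold higher with c-Jun (95% interval 45.9 to 127) and Gap43 43.5-fold higher with c-Jun (95% interval 30.4 to 64.3). The neuronal markers Snap25, Dcx and Elavl4 were at 0.5, 0 and 1 CPM with c-Jun, against 0, 0 and 1.23 CPM with c-JunDN, at or under the floor of 3 counts in both. Sprr1a, a cornified envelope precursor of keratinocytes, had 265 counts with c-Jun and 0 with c-JunDN, at least 108-fold higher, while the keratins Krt5 and Krt14 were at 0.5 and 1 CPM with c-Jun compared with 0 and 0.41 CPM with c-JunDN. Xirp2, a muscle actin-binding protein, had 150 counts with c-Jun and 0 with c-JunDN (at least 60.9-fold higher), and the Notch receptor gene Notch4 had 106 with c-Jun and 0 with c-JunDN (at least 43.0-fold higher). Myod1 and Myog, which define skeletal muscle, were at 0.5 and 0 CPM with c-Jun, against 0 and 0.41 CPM with c-JunDN. All 7 of these neuronal, keratinocyte and muscle markers were thus at or under that floor, whereas Tubb3, a neuronal tubulin, was 16.5-fold higher with c-Jun (95% interval 11.3 to 25). Of 6 measured neuronal markers 3 were higher and 2 lower. Of the 4 measured chondrocyte and bone markers, the factors Sox9 and Runx2 and the proteoglycan Acan were higher, with log2 ratios of 2.34, 1.69 and 1.64, and Col2a1, the cartilage collagen, was lower at -2.07. The median of these 4 was 1.67, and it was -0.39 when genes under 5 CPM were kept.

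Which of the 2 libraries departed from the other fibroblasts was counted for every called gene, as a description, with DR, WT and Jdp2 taking no part in the calls. Of the 878 genes higher with c-Jun, the DR level was within 2-fold of c-Jun alone for 98 (11.2%), of c-JunDN alone for 504 (57.4%), of both for 190 (21.6%) and of neither for 86 (9.79%). Of the 1146 lower genes, DR was within 2-fold of c-Jun alone for 113 (9.86%), of c-JunDN alone for 711 (62.0%), of both for 219 (19.1%) and of neither for 103 (8.99%). So for most called genes the c-Jun library was the one that stood away from DR. WT MEF were less one-sided, with 206 higher genes near c-Jun alone and 413 near c-JunDN alone, and 318 lower genes near c-Jun alone and 447 near c-JunDN alone. The Jdp2 library was below both libraries for 498 of the higher genes (56.7%) and above both for 576 of the lower genes (50.3%). Set against DR, which both comparisons share, c-Jun had 861 higher and 1060 lower genes (7.75% and 9.54% of 11114 measured), and c-JunDN had 358 higher and 299 lower (3.25% and 2.71% of 11030).

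Comparisons elsewhere in the series share no library with the MEF and were read for the same genes. Embryonic stem cells (ESC) carrying a doxycycline-inducible c-Jun were sequenced with and without 36 h of doxycycline, 1 library each. Jun itself was at 2015 CPM with doxycycline and 21.2 CPM without, and doxycycline moved 21.5% of 11133 measured genes up by 2-fold or more and 18.9% down. Of 679 MEF-higher genes measured there, 325 (47.9%) were at least 2-fold higher with doxycycline and 106 (15.6%) lower, against 20.5% higher and 16.2% lower over the 9996 genes measured in both. Of 682 MEF-lower genes, 264 (38.7%) were also higher with doxycycline and 125 (18.3%) were lower. Both sets were thus higher in induced ESC more often than all genes were. Across genes, the log2 ratios of MEF and ESC had a Pearson r of 0.06 and a Spearman rho of -0.0522 (n = 9996). Genes are not independent replicates, and a gene near 0 in uninduced ESC is measured only when it is higher with doxycycline.

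Named genes fell on both sides of this. Il11 was at 153 CPM with doxycycline and 0 CPM without, Adam8 at 274 and 2.26 CPM, and Fosl1 at 33.6 and 0 CPM, each with doxycycline and without. These 3 were higher with active c-Jun in both cell types, but in ESC each reached 5 CPM only in the induced library. Gsta4 and Stmn2, higher in MEF, were lower in induced ESC, with log2 ratios of -2.60 and -1.23, and Col4a1 and Col4a2, lower in MEF, were higher there, with 3.88 and 4.55. Spry1, Nid2 and Itga1 were lower in both, with ESC log2 ratios of -1.75, -2.71 and -2.37, but Itga1 reached 5 CPM there only without doxycycline. Of the interferon-response genes lower in MEF, Irf7 and Usp18 were at 8.47 and 49.5 CPM with doxycycline and at 0 without, so they were measured in ESC only through the induced library, and Oasl2 was at 7.12 CPM with doxycycline and 5.87 CPM without, short of 2-fold. Mmp10, Serpinb2 and Ifit1 did not reach 5 CPM in either ESC library.

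On day 3 after MEF received Klf4, Sox2 and c-Myc (KSM), cells also given c-JunDN were set against cells also given DR, again 1 library each. Jun was at 352 CPM with c-JunDN and 67.0 CPM with DR. That pair differed at few genes: 1.81% of its 10715 measured genes were higher and 1.62% lower with c-JunDN, and of the 10075 also measured in the MEF comparison 1.35% were higher and 1.04% lower. Of 624 MEF-higher genes measured there, 22 (3.53%) were higher and 23 (3.69%) lower with c-JunDN, and of 712 MEF-lower genes 43 (6.04%) were higher and 25 (3.51%) lower. With a pseudocount of 5 CPM, the 3.69% became 1.49% and the 6.04% became 2.70%. Across genes, Pearson's r between MEF and KSM log2 ratios was -0.0369 and Spearman's rho 0.00832 (n = 10075). Eln was at 6.28 CPM with c-JunDN and 1.1 CPM with DR, and Fbln5 and Itga1 had log2 ratios of 1.82 and 1.78, the direction opposite to that with active c-Jun in MEF. Eln and Itga1 reached 5 CPM in KSM only with c-JunDN, so they could be called there only as higher. Plaur and Bmp6, higher with c-Jun in MEF and with doxycycline in ESC, were lower with c-JunDN in KSM, at -1.0 and -1.10, but Bmp6 reached 5 CPM in KSM only with DR. They were 2 of 12 genes with that pattern, and 9 genes were higher in all 3 comparisons. Lower in MEF and ESC but higher in KSM with c-JunDN were 6 genes, Itga1 and Col2a1 among them, and 6 were lower in all 3. These counts are small and alike in both directions, and no share over genes measured in all 3 comparisons was computed. No opposite effect of c-Jun and c-JunDN is read from them.

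**Figure D5:**
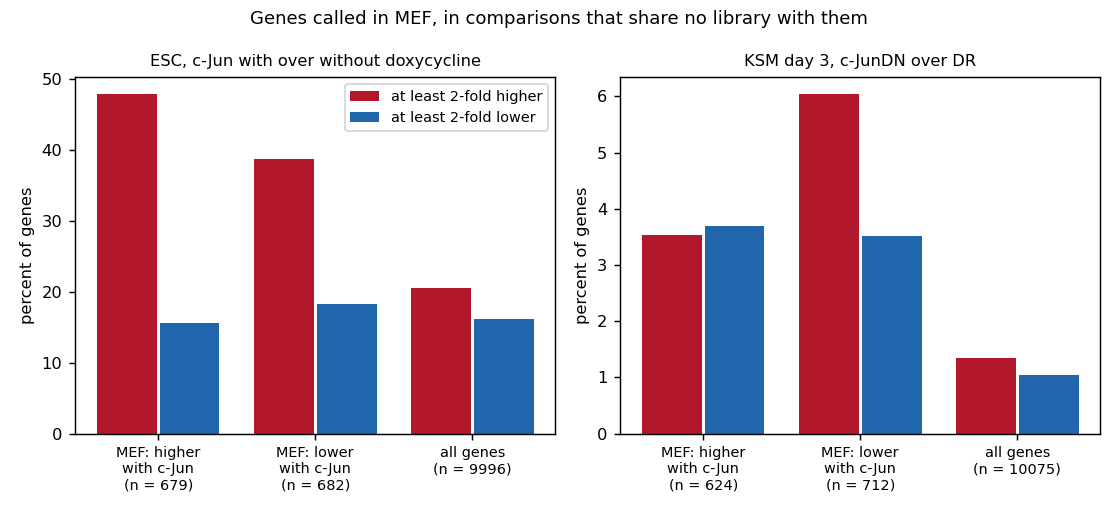
Percent of genes at least 2-fold higher (red) or lower (blue) in ESC with over without doxycycline and in KSM MEF with c-JunDN over DR, for genes called higher and lower with c-Jun in MEF and for all genes measured in both, 1 library per group and so no error bars. In ESC 47.9% of MEF-higher and 38.7% of MEF-lower genes were higher with doxycycline, against 20.5% of all genes, and in KSM no bar passes 6.04%.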

How the data were processed

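Per the labels' protocols, total RNA came from a Trizol extraction and a TruSeq RNA kit was used. The build was mm9 and RSEM 1.1.21 was named, per the submitters' processing notes. The RNA aligner is not given in the sources used here. The authors deposited RSEM expected counts per gene, which are estimated and not whole numbers, and these were rounded here. A second column, deposited by the authors as a fraction of transcripts per gene, was scaled to TPM as an alternative. Whether counting used strand is not stated, so reads of overlapping and antisense genes cannot be told apart. Counts were scaled by TMM (edgeR 4.0.16, R 4.3.3) over 12 libraries and are given as CPM. Log2 ratios add a pseudocount of 1 CPM, which understates the change of low genes, while fold values are plain ratios. Genes needed 5 CPM in 1 of the 2 libraries. Intervals are exact conditional binomial at 95%. The procedure was tested on simulated data. Genes named are the series' factors, up to 4 called members of each of 48 lists with the largest log2 ratios, and the 25 highest and lowest log2 ratios overall. Other genes named are markers fixed for cell types, list members given at or near 0, and Adamts1, Adamts5 and Ccnd2, which were chosen after their values were seen. A few genes that meet this rule are not reported here. A list gene near 0 in both libraries is not measured, so list counts lean to genes that are high in 1 library. Members and lists were chosen with earlier results of these data known. The list counts are descriptions without a test. Promoters come from a RefSeq table of GRCm38.p6 and were matched by gene symbol; no coordinates of the mm9 files are used. Peak files of the series were not used here.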

Additional observations from a re-analysis of the deposited data

How the results depend on the processing

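The count of genes higher with c-Jun ran from 650 to 1163 and of genes lower from 809 to 1637 over the other scalings, filters and pseudocounts tried, against 878 and 1146. The lowest counts came with a pseudocount of 5 CPM and the highest with no filter beyond 1 count, which tests more genes. No scaling moved the median by 0.1 on the log2 scale, and no log2 ratio of a named gene changed sign in any setting. Calls did end, however: of 187 called genes taken by the naming rule, 10 lost the call with a pseudocount of 5 CPM (Sox2, Dusp5, Zeb1 and Cdk6 among them), 8 with a minimum of 10 CPM (Sox2 and Nlrc5 among them) and 4 in TPM (Nlrc5 and Zeb1 among them), and none under the other settings. The list median that reversed was that of chondrocyte and bone markers, 1.67 over 4 measured genes and -0.39 with no filter. With a pseudocount of 5 CPM, the ESC share lower among MEF-lower genes was 13.4% (18.3% as reported), the KSM share lower among MEF-higher genes was 1.49% (3.69%), and the KSM share higher among MEF-lower genes was 2.70% (6.04%). No paired analysis was possible because each group has 1 library, and for the same reason none could be left out. The depth of 1961313 and 2472474 counts limits genes under 5 CPM. Replicate spread is unknown.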

Other observations

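Imprinted growth genes, which are expressed from 1 parental copy and shape fetal growth, were lower with c-Jun for 4 and higher for 1 of 13 measured (median -0.51). Mest was 11.2-fold lower with c-Jun (95% interval 7.87 to 16.3), at 17.0 CPM with c-Jun against 189.5 CPM with c-JunDN, and stood at 278, 385 and 249 CPM with Jdp2, with DR and in WT MEF, so the c-Jun library was the lowest of the 5. Zim1, Plagl1 and Peg3 had log2 ratios of -3.24, -2.63 and -1.88. Retinoid genes were split, 3 higher and 4 lower of 12, beside 7.84% higher and 10.2% lower over all measured genes. Dhrs3, a retinal reductase, was 33.7-fold lower with c-Jun (95% interval 14.2 to 105), while Cyp26b1, which degrades retinoic acid, was 5.97-fold higher with c-Jun (95% interval 2.99 to 13.2). For Dhrs3 the c-JunDN library was the highest of the 5, at 84.1 CPM, beside 31.5, 14.5 and 17.2 CPM with Jdp2, with DR and in WT MEF.

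Of 13 measured genes of the YAP and TEAD pathway, 2 were higher and 2 lower, with Ankrd1, a stretch-responsive nuclear protein, 10.1-fold higher with c-Jun (95% interval 7.27 to 14.4). Among mesenchymal factors and cadherins 1 of 13 was higher, the transcription factor Zeb1 (1.01), and 2 were lower, Fn1, which encodes fibronectin (-1.45), and Prrx2 (-1.42), beside 7.84% higher and 10.2% lower over all measured genes. The call of Zeb1 was lost in TPM and with a pseudocount of 5 CPM. The reprogramming factors Klf4 and Sox2 had log2 ratios of -2.18 and 1.75, the second on 13 counts with c-Jun and 3 with c-JunDN and not called with a pseudocount of 5 CPM or a minimum of 10 CPM, and Pou5f1, which encodes Oct4, was at or under the floor of 3 counts in both. Of 9 adipocyte markers 2 were measured, and both were lower with c-Jun. Lpl, lipoprotein lipase, was 17.6-fold lower with c-Jun (95% interval 11.5 to 28.4), and Cebpa had a log2 ratio of -1.63. The adipocyte genes Adipoq, Plin1 and Cidec had 0 counts in both libraries. None of 8 erythroid markers reached 5 CPM in either.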
